A study of Mus musculus with 6 samples.

Results

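PRC2, the polycomb repressive complex that writes trimethylation on lysine 27 of histone H3, was followed here through the transcripts of its core subunits Ezh2, Ezh1, Eed, Suz12 and Rbbp4 and its accessory subunits Mtf2, Phf1, Phf19, Jarid2 and Aebp2. The genes were found by their symbols in the count tables, and all 10 were present among 23260 genes. The tables came from 3′ mRNA sequencing of embryonic submandibular glands (eSMGs) of ICR mice, taken at embryonic day (E) 14 and cultured for 6 h. The 3 control cultures received no antagonist, and the 3 AMD3100 cultures received 50 µM AMD3100, which blocks the chemokine receptor CXCR4. Up to 10 whole glands were pooled in a tube, and each tube gave 1 library, so a replicate is a tube. Whether the tubes of a group came from separate litters was not stated, and the p-values measure only the spread between tubes. The comparison asks whether blocking CXCR4 changed the transcripts of this complex within 6 h.

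The catalytic subunit of PRC2 is either EZH2, which prevails in dividing cells, or EZH1, which persists in cells that have stopped dividing. SUZ12 holds the complex together, EED reads the mark that the complex has already written, and RBBP4 binds histones and serves other chromatin complexes as well. Accessory subunits define different forms of the complex: PRC2.1 carries one of the Polycomb-like proteins MTF2, PHF1 or PHF19, whereas PRC2.2 carries JARID2 and AEBP2. In embryonic tissues, PRC2 keeps developmental regulators silent in lineages that do not use them.

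Library totals ran from 9051595 to 14393031 counts, and every subunit had at least 1 count in every library. The level of 3 counts, taken as the floor, stood at 0.173 to 0.368 CPM (counts scaled to a common library total), and such floors and the intervals of shares given here cover counting error only. The scaling was by TMM, edgeR's correction for differences in library composition. Since a 3′ library yields about 1 tag per transcript, counts were not divided by gene length. Levels were tested between libraries, and where counts of different genes are set side by side they are counts of 3′ reads, not amounts of transcript. All 10 subunits passed the filter on low counts and were tested among 13610 genes.

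Both replicate 3 libraries stood apart from the other 4. The first principal component held 38.2% of the variance and placed control replicate 3 at 84.8 and AMD3100 replicate 3 at 80.8, with the others between -78.7 and -17.4. Skeletal muscle markers moved with this axis. The 6 listed (Myog, Tnnt1, Mylpf, Acta1, Myh3 and Tnnt3) summed to 168, 149 and 1241 CPM in control replicates 1 to 3 and to 103, 93.4 and 1595 CPM in AMD3100 replicates 1 to 3. Myog, a regulator of muscle differentiation, had the highest mean over the 6 libraries, through the replicate 3 libraries, and none of the 6 markers was at 0 in any library. The sum of the mesenchymal markers (6, with Col3a1 highest on average) went the other way, with 3408, 3413 and 1244 CPM in control and 3405, 3380 and 1127 CPM in AMD3100 eSMGs. Pdgfrb, 1 of the 6, was 2.91-fold in control replicate 3 over the mean of replicates 1 and 2, and 0.865-fold in AMD3100 replicate 3. The other mesenchymal markers were below that mean in replicate 3 of both groups. The 8 epithelial markers, of which Cdh1 had the highest mean CPM, were present in every library and summed to 1171, 1191 and 585 CPM in control and 1271, 1307 and 961 CPM in AMD3100 eSMGs. The part of this tissue makeup in the results below was not tested, and in whole glands fewer cells of a type cannot be told apart from less RNA per cell. The subunits were therefore also fitted from replicates 1 and 2 only.

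The promoters of the subunits were examined for the E2F motif, since E2F factors are known to activate Ezh2 in dividing cells. On GRCm38.p6, RefSeq places Ezh2 at chr6:47530274-47595270 on the reverse strand, Suz12 at chr11:79993106-80034123 on the forward strand and Phf19 at chr2:34893752-34914353 on the reverse strand. The window ran from 250 bases before to 50 bases after an annotated start, and the letters searched were TTTCCCGC, TTTCGCGC, TTTGCCGC and TTTGGCGC on both strands, none of them the reverse complement of another. All 10 subunits were matched, with 14 windows among them. The motif was in 1 window each of Ezh2, Suz12 and Phf19, beside 2.26% of all 32851 promoter windows. The bases G and C made up 64.3%, 71% and 74.3% of these windows, beside a median of 52.7% over all windows. The part of base composition in the matches was not tested. The stretches around these matches are shown because they are the only ones in the complex, each in the direction of its gene with the motif in capitals.
Ezh2: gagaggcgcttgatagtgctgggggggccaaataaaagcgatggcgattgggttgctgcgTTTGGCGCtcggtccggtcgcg
Suz12: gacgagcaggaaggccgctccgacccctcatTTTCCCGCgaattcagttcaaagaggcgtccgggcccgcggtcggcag
Phf19: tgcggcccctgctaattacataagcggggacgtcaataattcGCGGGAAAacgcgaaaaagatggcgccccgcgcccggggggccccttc
They lie at chr6:47595006-47595087 (reverse strand), chr11:79992856-79992934 (forward strand) and chr2:34914137-34914226 (reverse strand). The windows were set on transcript starts, which for Ezh2 (position 47595030) and Phf19 (position 34913976) lie inside the wider RefSeq gene and for Suz12 (position 79993106) is the gene's first base. The Ezh2 motif began 3 bases after that start, the Suz12 motif 219 bases before its own and the Phf19 motif, which reads TTTCCCGC on the opposite strand, 208 bases before its own. These are matches of letters, and no binding was measured here.

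Across the complex, 0 of the 10 subunits passed a fold change over 1.5 with an unadjusted p under 0.05 in edgeR's quasi-likelihood test, beside 1.68% of all genes tested. After Benjamini-Hochberg adjustment, 0 of the 13610 genes (0.0%) passed 0.05, and each subunit had an adjusted p of 1.0. DESeq2 also called 0 of the 10 subunits by the same fold and unadjusted p, beside 2.39% of all genes. By sign, 5 subunits were higher and 5 lower after AMD3100. Their median log2 fold change was -0.03, beside a median of 0.02 over all genes tested. The 3 libraries of one group stood wholly above those of the other for 2 of the 10, Ezh2 and Aebp2, beside 7.44% of all genes.

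**Figure D1:**
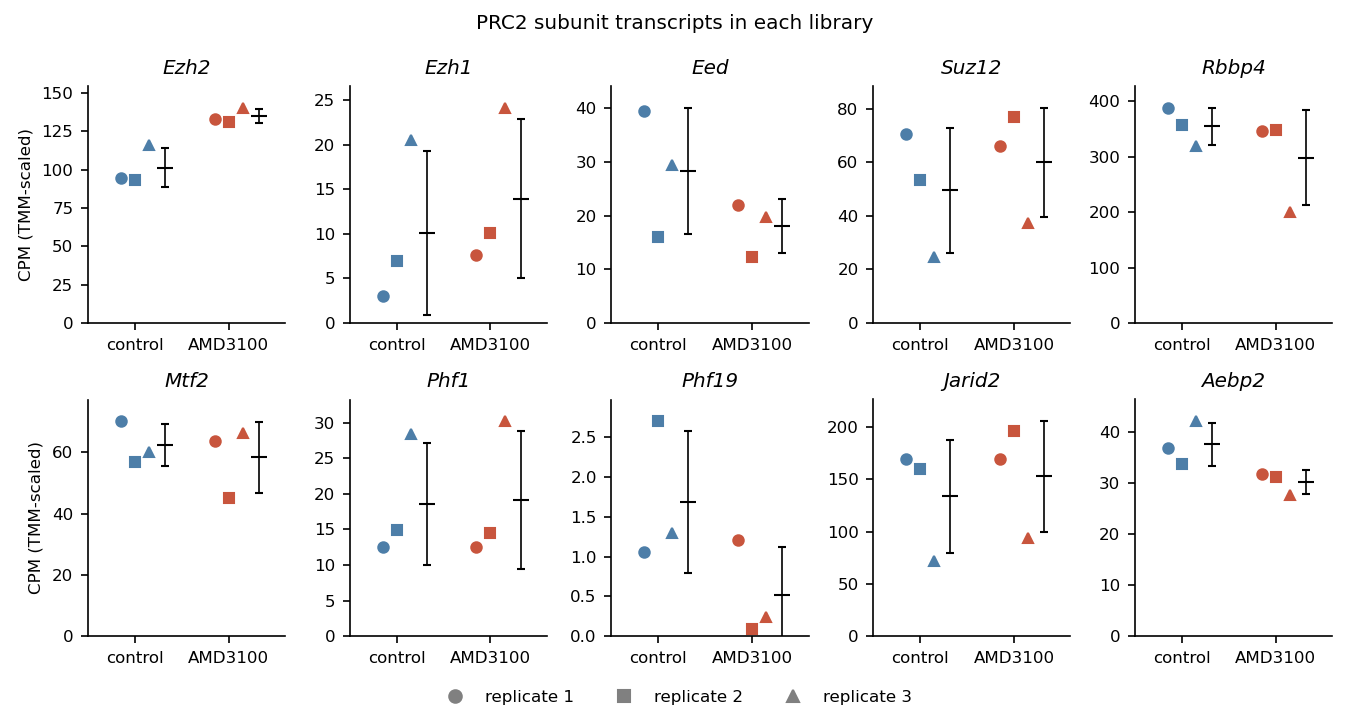
Expression of each PRC2 subunit (vertical axis, TMM-scaled CPM, its own scale in each panel and starting at 0) in the 3 control and 3 AMD3100 libraries, with marker shapes for the replicate number and black bars for the mean ± SD. All 3 AMD3100 libraries sit above the controls for Ezh2 and below them for Aebp2, and the replicate 3 libraries of both groups are low for Suz12 and Jarid2 and high for Ezh1 and Phf1.

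Ezh2, the catalytic subunit of dividing cells, was higher in every AMD3100 library than in any control library. It stood at 94.4, 93.5 and 116 CPM in control replicates 1 to 3 and at 133, 131 and 141 CPM in AMD3100 replicates 1 to 3. The means were 101 ± 13.0 and 135 ± 4.83 CPM (SD, n = 3). The gap between the groups lay between control replicate 3 and AMD3100 replicate 2, and the AMD3100 libraries were the more alike. The groups also stayed apart when the counts were scaled by library totals, by totals without the ribosomal RNA precursor Rn45s, or by the upper quartile. The log2 fold change was 0.41 ± 0.26 (SE), or 1.33-fold, with a 95% interval of -0.18 to 1.01 and an unadjusted p of 0.151 in edgeR. With the replicate number as a block, the log2 fold change was 0.42 (95% interval 0.10 to 0.74) and the unadjusted p was 0.0156, with an adjusted p of 0.677. From replicates 1 and 2 only, it was 0.49 with an unadjusted p of 0.0142 and an adjusted p of 0.776. Its size stayed under the 1.5-fold threshold in each of these fits. Ezh2 was the 1 subunit of 10 with an unadjusted p under 0.05 in the fit without the replicate 3 libraries, in which 5.72% of all genes had one.

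Ezh1 (chr11:101191115-101226463), the catalytic subunit of resting cells, varied far more between replicates than between groups. Its levels were 2.98, 6.92 and 20.5 CPM in control and 7.66, 10.05 and 24.2 CPM in AMD3100 eSMGs. The groups overlapped, although each AMD3100 library was above the control library of the same number. The log2 fold change was 0.46 ± 0.73 (SE) with an unadjusted p of 0.544 in edgeR, and 0.69 with an unadjusted p of 0.106 with the replicate block. From replicates 1 and 2 only, it was 0.83 with an unadjusted p of 0.287. Single libraries decided its value: the log2 fold change of Ezh1 was -0.22 without AMD3100 replicate 3 and 1.499 without control replicate 3.

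Set against each other within a library, the counts of Ezh2 and Ezh1 gave a balance that does not depend on scaling. Ezh2 had 31.7, 13.5 and 5.67 times the counts of Ezh1 in control replicates 1 to 3 and 17.4, 13.1 and 5.81 times in AMD3100 replicates 1 to 3. The balance followed the replicate number: it was lowest in replicate 3 of both groups, at 2.50 and 2.54 on the log2 scale. The mean log2 ratio was 3.74 ± 1.23 in control and 3.45 ± 0.82 in AMD3100 eSMGs (SD, n = 3), a difference of -0.29 with a two-sided exact permutation p of 0.80. The smallest p that 3 against 3 can give is 0.10. Within same-numbered pairs the difference was -0.85, -0.04 and 0.04, with an exact sign-flip p of 0.50, where 0.25 is the smallest possible. Without the replicate 3 libraries, the mean difference was -0.45.

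Eed (chr7:89954654-89980976), which reads the mark and stimulates the enzyme, was lower in AMD3100 eSMGs in each same-numbered pair. Its levels were 39.6, 16.1 and 29.5 CPM in control and 21.9, 12.4 and 19.8 CPM in AMD3100 eSMGs. The groups overlapped, because control replicate 2 was below AMD3100 replicates 1 and 3. The log2 fold change was -0.65 ± 0.42 (SE), with a 95% interval of -1.60 to 0.30 and an unadjusted p of 0.153 in edgeR. With the replicate block, the log2 fold change of Eed was -0.61 (95% interval -1.18 to -0.03) with an unadjusted p of 0.0403, so Eed was the 1 subunit of 10 past both thresholds in that fit, beside 4.39% of all genes. The adjusted p was 0.728. Without the block, leaving out control replicate 1 took the log2 fold change of Eed to -0.34, leaving out AMD3100 replicate 2 to -0.44, and leaving out control replicate 2 to -0.94. From replicates 1 and 2 only, it was -0.70 with an unadjusted p of 0.169. With the block, 2 of the 10 subunits (Ezh2 and Eed) had an unadjusted p under 0.05, beside 6.66% of all genes, and they went in opposite directions.

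**Figure D2:**
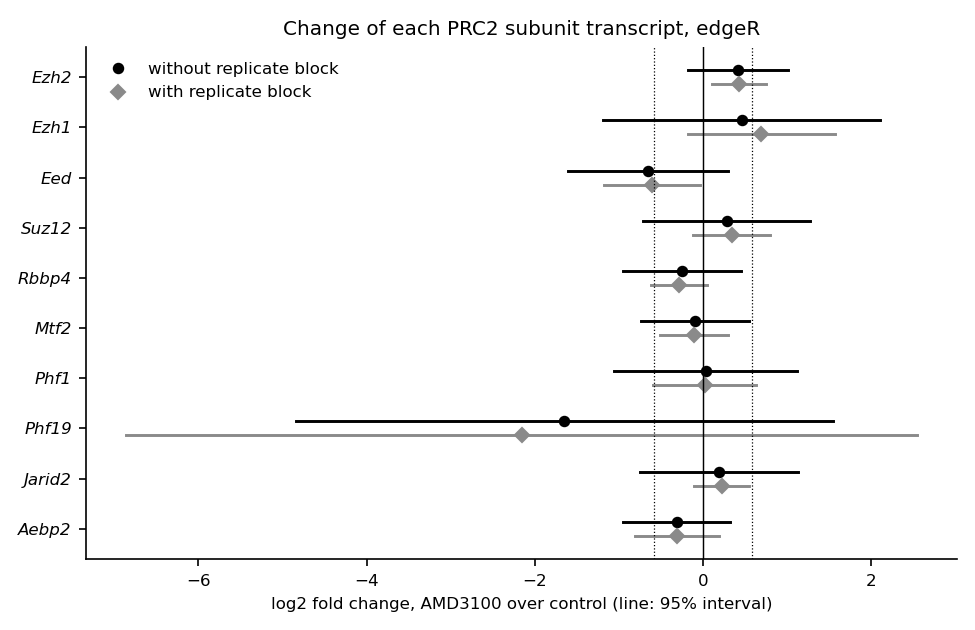
Log2 fold change of each PRC2 subunit, AMD3100 over control (horizontal axis), from edgeR without (black circles) and with (grey diamonds) the replicate number as a block; lines are 95% intervals and dotted lines mark a 1.5-fold change. All intervals without the block include 0, and with the block only those of Ezh2, at 0.42, and Eed, at -0.61, do not.

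Suz12, the scaffold, differed mainly by replicate number. It stood at 70.8, 53.3 and 24.5 CPM in control and at 66.2, 76.9 and 37.5 CPM in AMD3100 eSMGs, and the groups overlapped. The lowest library of each group was replicate 3. Its log2 fold change was 0.28 ± 0.44 (SE) with an unadjusted p of 0.537 in edgeR, and it was -0.04 without control replicate 3. Of 11 simulated reads from the end of the Suz12 transcript, 2 aligned elsewhere in the genome within a mismatch of the best place, so part of its counts may be uncertain.

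Rbbp4, the histone-binding subunit, did not differ beyond the spread of its replicates. Control libraries held 388, 358 and 320 CPM, and AMD3100 libraries held 347, 348 and 200 CPM. AMD3100 replicate 3 was the low library, and the other 2 AMD3100 libraries lay within the control range. Its log2 fold change was -0.25 ± 0.31 (SE) with an unadjusted p of 0.440 in edgeR, and -0.11 from replicates 1 and 2 only. Rbbp4 took 43.8%, 45.0% and 44.8% of the counts on the 10 genes in control and 40.6%, 40.2% and 31.2% in AMD3100 eSMGs. These shares did not overlap, but they were computed after the levels had been seen and were not tested. Rbbp4 lies at chr4:129307100-129335370 on the reverse strand, and Sync, on the forward strand, covers its 3′ end. Whether reads were counted by strand was not given in the sources used here, and reads of the pair cannot be told apart without it. Sync had 0 counts in each control library and 5, 21 and 15 counts in AMD3100 replicates 1 to 3, against at least 1625 counts of Rbbp4. Of 10 simulated reads from the end of Rbbp4 that aligned, 1 was shared with another place in the genome.

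Of the Polycomb-like subunits of PRC2.1, none passed the test. Mtf2 (chr5:108065660-108109219) was the steadiest, with 70.2, 57.0 and 60.1 CPM in control and 63.7, 45.2 and 66.2 CPM in AMD3100 eSMGs and a log2 fold change of -0.10 ± 0.28 (SE, unadjusted p = 0.739 in edgeR), or -0.23 from replicates 1 and 2 only. Phf1 (chr17:26933127-26937908), at 12.5, 14.9 and 28.4 CPM in control and 12.6, 14.5 and 30.2 CPM in AMD3100 eSMGs, was nearly the same in each same-numbered pair. Its log2 fold change of 0.03 ± 0.48 (SE) had a 95% interval of -1.05 to 1.12, which still allows more than a 1.5-fold change either way. Phf19 was close to the floor, with 12, 37 and 13 counts in control and 21, 1 and 2 counts in AMD3100 libraries. AMD3100 replicates 2 and 3 were at or below 3 counts, and its libraries were uneven within each group, so that no difference could be told from the spread (log2 fold change -1.65 ± 1.41 SE, 95% interval -4.84 to 1.54). Of 11 simulated reads from its end, 1 was shared with another place.

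Jarid2 (chr13:44730774-44921643), which brings PRC2.2 to chromatin, resembled Suz12 in its levels across libraries. It stood at 170, 160 and 71.8 CPM in control and at 169, 195 and 93.8 CPM in AMD3100 eSMGs. Both replicate 3 libraries were low, and the groups overlapped. The log2 fold change of Jarid2 was 0.19 ± 0.42 (SE) with an unadjusted p of 0.656 in edgeR, and it turned to -0.11 without control replicate 3 and to -0.02 without AMD3100 replicate 2. Of 11 simulated reads from the end of the Jarid2 transcript, 3 aligned elsewhere within a mismatch of the best place.

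Aebp2 (chr6:140622454-140678472), the zinc finger partner of JARID2 in PRC2.2, was lower in every AMD3100 library than in any control library. Its levels were 36.9, 33.8 and 42.2 CPM in control and 31.9, 31.2 and 27.6 CPM in AMD3100 eSMGs. The gap between the groups was narrow, and with scaling by library totals alone the groups overlapped. Its means were 37.6 ± 4.24 and 30.2 ± 2.28 CPM (SD, n = 3). The log2 fold change was -0.31 ± 0.28 (SE), with a 95% interval of -0.95 to 0.32 and an unadjusted p of 0.288 in edgeR. It was -0.17 from replicates 1 and 2 only, over 1.5 times smaller on the log2 scale.

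The 2 forms of the complex were set against each other by the share of accessory-subunit counts that fell on Mtf2, Phf1 and Phf19, the rest being on Jarid2 and Aebp2. In control replicates 1 to 3 it was 28.9% (95% Wilson interval 27.3 to 30.4), 27.8% (26.4 to 29.3) and 44.1% (41.9 to 46.2). In AMD3100 replicates 1 to 3 it was 27.9% (26.6 to 29.1), 20.9% (19.5 to 22.3) and 44.3% (42.0 to 46.6). The 2 replicate 3 libraries were higher than the other 4, and their intervals overlapped each other. The mean share was 33.6% ± 9.11 in control and 31.0% ± 12.04 in AMD3100 eSMGs (SD, n = 3), a difference of -2.57 percentage points with a two-sided exact permutation p of 0.80, where 0.10 is the smallest possible. Within same-numbered pairs, the difference was -1.0, -6.95 and 0.23 percentage points, and from replicates 1 and 2 only the mean difference was -3.98.

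**Figure D3:**
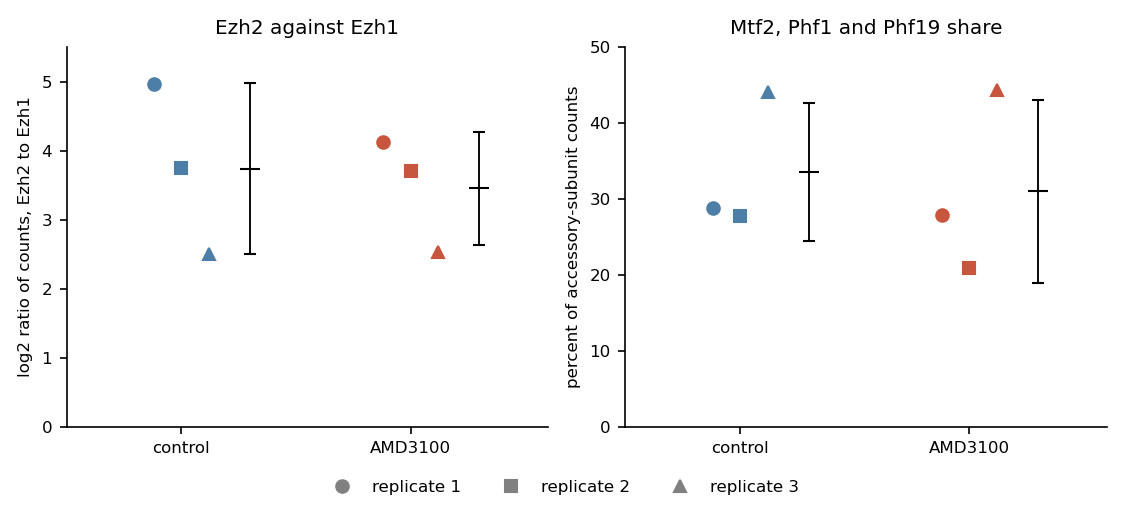
Left, log2 ratio of Ezh2 to Ezh1 counts; right, percent of accessory-subunit counts on Mtf2, Phf1 and Phf19, in each control and AMD3100 library, with marker shapes for the replicate number and black bars for the mean ± SD. In both groups replicate 3 has the lowest ratio, 2.50 and 2.54, and the highest share, 44.1% and 44.3%.

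Most of the subunits moved the same way in the replicate 3 libraries with and without AMD3100, and Aebp2 and Mtf2 did not. Against the mean of replicates 1 and 2 of its own group, Ezh1 was 4.15-fold in control replicate 3 and 2.73-fold in AMD3100 replicate 3, and Phf1 was 2.07-fold and 2.24-fold. Suz12 was 0.395-fold and 0.524-fold, and Jarid2 was 0.436-fold and 0.515-fold. Ezh2 moved little, at 1.24-fold and 1.06-fold. Aebp2 went opposite ways, at 1.19-fold in control and 0.876-fold in AMD3100 replicate 3, and so did Mtf2, at 0.946-fold and 1.22-fold. Summed, the muscle markers were 7.82-fold and 16.2-fold and the mesenchymal markers 0.365-fold and 0.332-fold in the same libraries, and their part in these differences was not tested. Replicate 3 has 1 library in each group, so these are values without a test.

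**Figure D4:**
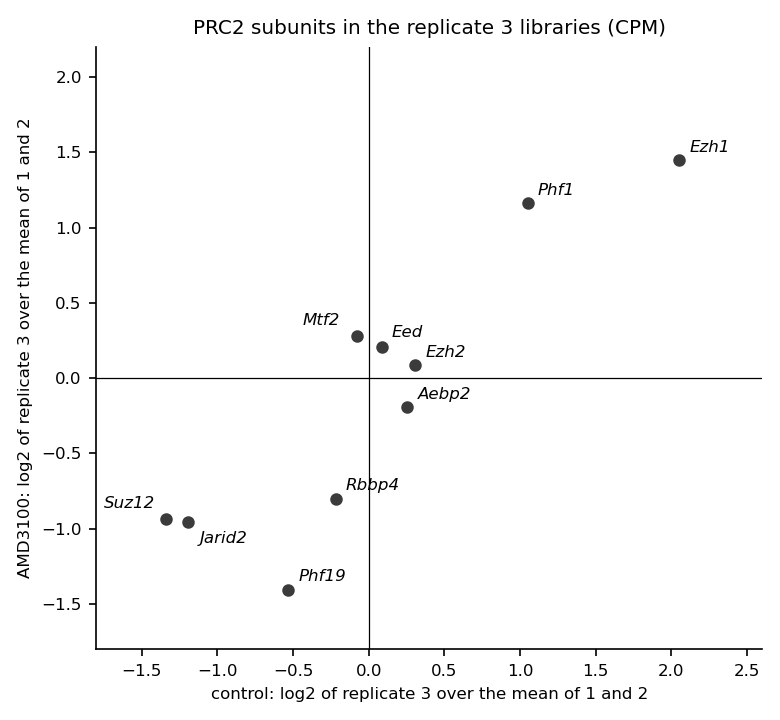
Log2 of the replicate 3 level over the mean of replicates 1 and 2 for each PRC2 subunit, in control (horizontal axis) and AMD3100 eSMGs (vertical axis), both from CPM. Ezh1 and Phf1 lie above 0 on both axes and Suz12, Jarid2, Rbbp4 and Phf19 below 0 on both, while Ezh2 lies near the centre and Aebp2 and Mtf2 have opposite signs on the 2 axes.

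In same-numbered pairs, 5 of the 10 subunits went the same way in all 3, beside 30.2% of all genes tested: Ezh2 and Ezh1 were higher, and Eed, Rbbp4 and Aebp2 lower. The summed level of the 10 transcripts was 886, 796 and 715 CPM in control and 855, 865 and 640 CPM in AMD3100 eSMGs, and the groups overlapped. Without Rbbp4, which was left out after the values had been seen because it took the largest part of the sum, the level averaged 444 ± 51.9 CPM in control and 488 ± 41.9 CPM in AMD3100 eSMGs (SD, n = 3) and was higher after AMD3100 in all 3 same-numbered pairs, by 9.22, 79.1 and 45.3 CPM, although the groups again overlapped.

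The genes whose levels across the 6 libraries were most like those of Ezh2 were Rbm25, Styx, Mfap1a, Esf1 and Scand1, by the root mean square difference of centred log2 CPM over 8245 genes of at least 10 CPM. The distance ran from 0.05 for Rbm25 to 0.08 for Scand1, where the median gene was at 0.48. Rbm25 stood at 281, 294 and 331 CPM in control and 375, 386 and 409 CPM in AMD3100 eSMGs. Mtf2 was the closest of the other subunits, at rank 2012 with a distance of 0.34, and Ezh1 the farthest, at rank 7372 with 0.85. Phf19 was below the minimum level for this comparison.

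Around the complex, other PRC2 partners did not pass the test either in the fit used throughout. Of 5 listed, Ezhip, an inhibitor of EZH2, had 0 counts in every library, and of the 4 tested 2 were higher and 2 lower. Epop, a partner of PRC2.1, stood at 2.63, 3.35 and 5.48 CPM in control and at 6.68, 12.5 and 7.25 CPM in AMD3100 eSMGs, without overlap, with a log2 fold change of 1.21 ± 0.58 (SE) and an unadjusted p of 0.0659 in edgeR. Epop did pass both thresholds when at least 10 counts were required in every library (1.21, unadjusted p = 0.0451) and without control replicate 3 (1.56, unadjusted p = 0.0474). Lcorl, which also joins PRC2.1, stood at 22.3, 21.3 and 15.6 CPM in control and at 14.6, 10.6 and 14.2 CPM in AMD3100 eSMGs. Its groups did not overlap either, but the AMD3100 libraries were the lower ones. Of the 4 tested, the groups stood apart for 2, 1 higher and 1 lower, beside 7.44% of all genes. In edgeR, Lcorl had a log2 fold change of -0.58 (unadjusted p = 0.132) and Lcor one of 0.57 (unadjusted p = 0.475). Rbbp7, the paralogue of Rbbp4, had one of -0.24 (unadjusted p = 0.446). Lcor was at 0.99 and Rbbp7 at -0.07 from replicates 1 and 2 only. Among 9 enzymes that oppose PRC2, such as the demethylase Kdm6a and the acetyltransferase Crebbp, 0 passed both thresholds, with 7 higher and 2 lower and a median log2 fold change of 0.15. Crebbp had a log2 fold change of 0.42 (unadjusted p = 0.352, and 0.0122 with the replicate block), and Kmt2a one of 0.39 (unadjusted p = 0.332, and 0.0275 with the block). They were the 2 of the 9 enzymes with an unadjusted p under 0.05 with the block, beside 6.66% of all genes, and neither reached 1.5-fold. Nsd1, with the highest mean CPM of the 9, was at 0.15, Ash1l at -0.15 and Kdm6a at -0.14.

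In PRC1, which binds the mark that PRC2 writes, 2 of the 20 genes tested (of 21 listed) passed both thresholds, Phc2 and Rybp, beside 1.68% of all genes, and both fell. DESeq2 called 3 by the same thresholds, beside its 2.39% of all genes. Whether the complexes differ was not tested. Phc2, a Polyhomeotic subunit, stood at 67.5, 67.3 and 58.7 CPM in control and 34.0, 32.6 and 34.4 CPM in AMD3100 eSMGs, with a log2 fold change of -0.94 ± 0.26 (SE), an unadjusted p of 0.00596 and an adjusted p of 1.0 in edgeR. Rybp, which marks the variant form of PRC1, had a log2 fold change of -0.99 ± 0.34 (SE, unadjusted p = 0.0191 in edgeR), and was at -0.97 from replicates 1 and 2 only, where the smaller fit no longer called it (unadjusted p = 0.0580). The median of the 20 was -0.06, with Pcgf2 at 0.25, Rnf2 at 0.16 and Cbx6, with the highest mean CPM, at 0.08, none of them past the thresholds. Cbx8, singled out after its value was seen, had the lowest log2 fold change of the list, -3.17 ± 1.65 (SE, unadjusted p = 0.0871 in edgeR and 0.0347 in DESeq2), from 22, 29 and 21 counts in control and 0, 1 and 5 counts in AMD3100 libraries. The receptor and its ligand showed no passing change of their own, with Cxcr4 at a log2 fold change of -0.50 (unadjusted p = 0.284) and Cxcl12 at -0.39 (unadjusted p = 0.249). Without the replicate 3 libraries, Cxcr4 was at -0.26 and Cxcl12 at -0.01.

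**Figure D5:**
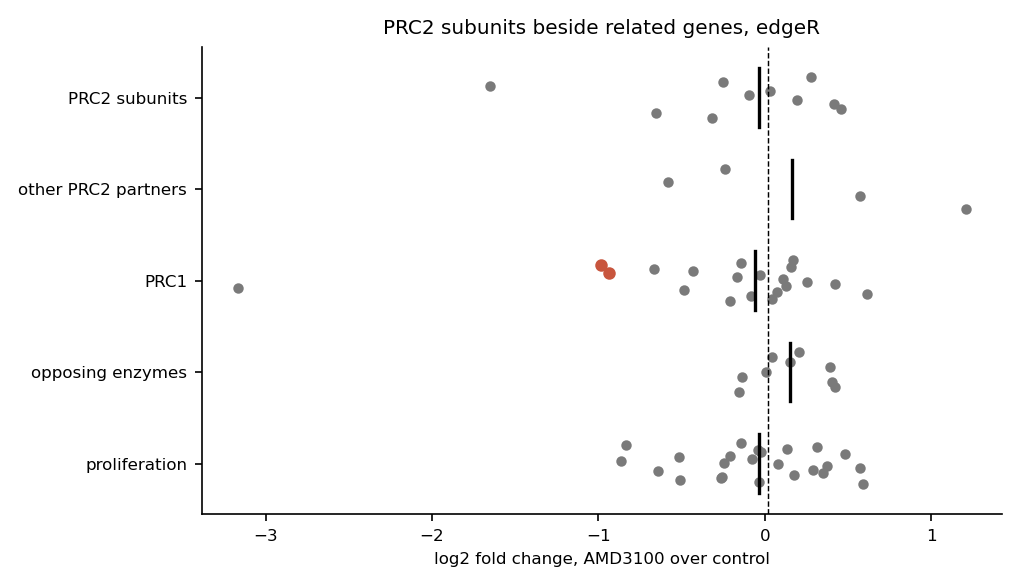
Log2 fold change, AMD3100 over control (horizontal axis), of each tested gene in 5 lists, with black bars for the list medians and a dashed line for the median of all tested genes, 0.02. The 2 red points, Phc2 and Rybp of PRC1, passed both thresholds; no PRC2 subunit did. The PRC1 point farthest to the left is Cbx8, at -3.17.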

How the data were processed

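Up to 10 E14 eSMGs per tube were lysed after 6 h with or without 50 µM AMD3100, and 3′ mRNA libraries (QuantSeq kit) were read as 50 bp single reads. The authors deposited raw counts per gene symbol for each library, and the submitters' processing notes name Bowtie2, edgeR and mm10; the counter, its strand setting and the annotation were not given in the sources used here. Of 23282 lines per library, 22 that repeated a symbol with the same counts were dropped. Rn45s, the ribosomal RNA precursor, took 16.2% to 32.5% of the counts.

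Groups and replicate numbers came from the sample labels. The members and all gene lists were chosen with earlier results of these data known, and so were replicates 1 and 2 only and Rn45s left out as alternatives. The test was edgeR 4.0.16 in R 4.3.3 (TMM, filterByExpr, glmQLFit, glmQLFTest) with condition as the only term and Benjamini-Hochberg adjustment over 13610 genes. The thresholds were a fold change over 1.5 and an unadjusted p under 0.05. Both balances were compared by exact permutation, with 0.5 added to each count in the Ezh2 to Ezh1 ratio. Alternatives were upper quartile normalization, DESeq2 1.42.0, the filter dropped or raised to 10 counts in all libraries, limma 3.58.1 (voom on quantile-normalized counts), the replicate block, and each library left out. The other scalings under which groups were checked for overlap were chosen after seeing the data. Deviations from group means of same-numbered libraries correlated across genes at 0.18, 0.17 and 0.58, so the numbers shared by the labels were taken to pair the samples, although replicates 1 and 2 correlated as well when crossed (0.20 and 0.15).

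Besides the 10 subunits, the genes named were, in each list of related genes, those past both thresholds, the 2 with the lowest p in each direction and the 2 with the highest mean CPM over the 6 libraries, together with Cxcr4, Cxcl12 and the 5 genes most like Ezh2. Some genes of these lists are not reported here. Sync, Ezhip, Cbx8 and the cell type markers were named outside this rule, after their values were seen. Epop and Ezhip are listed under older symbols in the files. Positions and promoters are from RefSeq on GRCm38.p6. Shared reads were judged by aligning simulated 50-base reads from GENCODE vM1 transcript ends with minimap2 2.31-r1302 to the older build NCBIM37. The scripts were tested on simulated data.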

Additional observations from a re-analysis of the deposited data

How the results depend on the processing

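Of the 10 subunits, 0 passed both thresholds under each alternative but the replicate block, where 1 (Eed) passed. The whole table had 228 genes past both thresholds in edgeR, and this moved to 598 with the replicate block, to 613 from replicates 1 and 2 only, and to between 163 and 547 when a library was left out (547 without control replicate 3 and 451 without AMD3100 replicate 3). Genes with an adjusted p under 0.05 were 0 in edgeR, 5 in DESeq2 and 3 with the replicate block, and 0 with each library left out. The median log2 fold change of the subunits lay between -0.21 (without AMD3100 replicate 3) and 0.021 with a library left out. No scaling moved the median of all genes by over 0.1. The cause of these changes was not tested.

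Ezh2, Eed, Rbbp4, Aebp2 and Phf19 kept their direction under every alternative that gave a value; with a library left out, Ezh2 ranged from 0.36 to 0.53, Eed from -0.94 to -0.34, Rbbp4 from -0.38 to -0.04 and Aebp2 from -0.39 to -0.22. The direction turned with a library left out for Ezh1 (-0.22 to 1.499), Suz12 (-0.043 to 0.62), Jarid2 (-0.11 to 0.43), Mtf2 (-0.21 to 0.063) and Phf1 (-0.48 to 0.48), and Phf1 also turned with voom after quantile normalization (-0.011) and from replicates 1 and 2 only (-0.030). The Ezh2 to Ezh1 log2 ratio difference ran from -0.91 to 0.33, and the Polycomb-like share difference from -9.23 to 2.67 percentage points. With the replicate block these were tested by sign flips (difference -0.29 and -2.57, exact p = 0.50 for both). The smallest p that this test can give here is 0.25, so it could make no call. Among related genes, the direction turned for Ash1l (-0.45 to 0.12), Cbx6 (-0.20 to 0.29), Kdm6a (-0.64 to 0.31), Nsd1 (-0.093 to 0.32), Pcgf2 (-0.37 to 0.67), Hoxb1 (-0.20 to 5.11) and Hoxd11 (-1.69 to 0.70). The block changed the call of Eed, Mcm4, Tyms, Myog and Twist1 and of no other gene named here.

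With a biological coefficient of variation of 0.579 between libraries, 95% intervals of the subunits in the fit without the block reached beyond a 1.5-fold change in at least 1 direction; with the block, those of Mtf2 (-0.52 to 0.29) and Jarid2 (-0.10 to 0.55) did not. Phf19 had between 1 and 37 counts a library.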

Other observations

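EZH2 is a gene of dividing cells, and 24 proliferation genes were read beside it. None passed both thresholds in edgeR, with 10 higher and 14 lower and a median log2 fold change of -0.04, beside 0.02 over all genes. E2f1, which activates genes of DNA synthesis, had a log2 fold change of 0.57 (unadjusted p = 0.261), and Mki67, a marker of cycling cells, one of 0.48 (unadjusted p = 0.329). Tyms and Mcm4, both needed for DNA synthesis, were at -0.83 (unadjusted p = 0.0692) and -0.86 (unadjusted p = 0.0710). With the replicate block in edgeR both passed the thresholds (unadjusted p = 0.0319 and 0.0424), 2 of the 24 genes, beside 4.39% of all genes. In that fit 5 of the 24 had an unadjusted p under 0.05, beside 6.66% of all genes. Of these, 1 was higher (Mki67, 0.51, unadjusted p = 0.0323) and 4 were lower. Cdk1 and Top2a, with the highest mean CPM of the list, were at -0.64 and 0.31. Without both replicate 3 libraries, Cdk1 was at -0.23, Mcm4 at -0.31 and E2f1 at 0.88. E2f1 passed the thresholds without control replicate 3 (1.13, unadjusted p = 0.0335), and Mcm4 without control replicate 1 (-1.11, unadjusted p = 0.0384) or control replicate 2 (-1.08, unadjusted p = 0.0492). Mcm4 stood at 61.0 CPM in control replicate 3 and at 18.8 to 25.1 CPM in the other 5 libraries.

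Of 12 listed genes outside the Hox clusters that PRC2 is known to hold silent in other tissues, 1 passed the filter on low counts. This was Gata6, with a mean of 23.1 CPM over the 6 libraries and a log2 fold change of -0.27 (unadjusted p = 0.450), and Pax6 averaged 0.967 CPM. Of 39 Hox genes, 6 passed the filter and 0 passed both thresholds. Some alternatives made single calls: Hoxb2 from replicates 1 and 2 only (unadjusted p = 0.0477) and without AMD3100 replicate 3 (unadjusted p = 0.0136), Hoxd4 with voom after quantile normalization (unadjusted p = 0.0360) and Hoxb1 without control replicate 1 (unadjusted p = 0.0411). Hox counts were uneven among replicates: Hoxd11 gave 104, 9 and 25 reads in the control libraries and 24, 57 and 9 in the AMD3100 ones. Log2 fold changes were 2.67 for Hoxc13 (unadjusted p = 0.196), 0.38 for Hoxb1 (unadjusted p = 0.828), -1.78 for Hoxd4 (unadjusted p = 0.228), -2.12 for Hoxb2 (unadjusted p = 0.275) and -0.66 for Hoxd11 (unadjusted p = 0.567). With the block, Hoxc13 was at 0.96, and 88 of its counts were in AMD3100 replicate 2. All of these values rest on few reads. For Hoxc13 the reads lay largely in 1 library. Hoxb1 gave 50, 0 and 1 reads in the control libraries and 47, 23 and 8 in the AMD3100 ones, and it moved to 2.65 with the block. Hoxd4 and Hoxb2, like Hoxd11, were read in every control library, and these 2 were lower after AMD3100 in all 3 same-numbered pairs. They were 2 of the 6 Hox genes tested, where 30.2% of all genes went the same way in all 3 pairs. Each control library gave at least 40 reads of Hoxd4, and no AMD3100 library gave more than 23, so its groups stood apart. This held for 1 of the 6 tested, beside 7.44% of all genes. The Hoxb2 groups overlapped in CPM.

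Markers of the cell types listed did not pass both thresholds in edgeR without the block. With the block, the muscle gene Myog (-1.16, unadjusted p = 0.00442) and the mesenchymal gene Twist1 (-0.97, unadjusted p = 0.0193) passed, while the list medians were -0.16 for muscle and -0.08 for mesenchyme. In the fit without the block, 5 of the 6 muscle markers were higher after AMD3100, at a median of 0.45. Those that passed from replicates 1 and 2 only included Myog (-1.77, unadjusted p = 0.000351), Myh3 (-0.85, unadjusted p = 0.0284) and the embryonic globins Hbb-y (-1.04, unadjusted p = 0.0103) and Hba-x (-1.35, unadjusted p = 0.0106). Erythroid genes (9) had a median log2 fold change of -0.44 without the block and -0.33 with it. Of the 9, 3 were lower in all 3 same-numbered pairs, where 30.2% of all genes went the same way in all 3. Hbb-b1 and Hbb-bs, both among these 3, had nearly the same counts in every library. The summed level of the 9 erythroid genes was 8649, 22573 and 13487 CPM in control and 8265, 13125 and 13466 CPM in AMD3100 libraries, with Hba-a1 highest on average. Macrophage genes (6, with C1qa highest on average through the replicate 3 libraries) summed to 87.0, 62.1 and 190 CPM in control and 85.5, 87.8 and 155 CPM in AMD3100 libraries. Neural genes (5, with Tubb3 highest on average) summed to between 408 and 736 CPM, and endothelial genes (5, with Kdr highest on average) to between 15.6 and 44.4 CPM.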
